A study of Mus musculus with 24 samples.

Results

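In 24 RNA-seq libraries of mouse liver, 8 transcripts were followed whose values were lower in transgenic (TGA) than in wild-type (WT) mice. They are 8 of the 35974 genes in the deposited table, namely Rorb, Gm31305, Pigr, Cyb5r3, Spop, Arsb, 4932431P20Rik and Fgf9. They were selected on the measured values themselves, for a lower level in TGA than in WT over all classes, so every TGA against WT value of these 8 is a description and carries no test. All libraries came from liver of strain C3H/HeJ, and each title holds a genotype (TGA or WT), a number (1, 2, 3 or 4) and an ending of 2, 4 or 8, called class 2, class 4 and class 8 here. The 6 groups are TGA class 2, TGA class 4, TGA class 8, WT class 2, WT class 4 and WT class 8, with 4 libraries each. TGA is labelled transgenic and WT wild type. The labels name neither the transgene, its promoter nor an age, and they do not say what the class is. The series title concerns polyploid hepatocytes, the parenchymal liver cells with extra sets of chromosomes, so a reading of the class as DNA content rests on that title alone. Whether libraries of one group came from separate animals is not labelled, so p-values measure the spread between libraries, which may be technical.

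Every value is on the scale log2(normalised count + 1). The normalisation is not given, and quantile normalisation was inferred from the values: the highest, 16.41, was shared by 20 of the 24 libraries. A value thus largely follows the rank of a gene within its library, but the match is not exact. Rank 5 was 10.60 for Cyb5r3 in TGA number 3 class 8 and 13.42 for Pigr in TGA number 1 class 4. The number of genes above 0 ran from 1624 to 15147 per library, with a median of 2863.5 in TGA and 3175 in WT, and 4 libraries lay above 7000 (TGA number 3 class 8, WT number 1 class 2, WT number 1 class 4 and WT number 4 class 2). Among the 4875 genes tested, 54.1% of values were 0, and Actb, the gene of beta-actin, was itself listed at 0 in 14 libraries. A value of 0 is thus a listing and not a sign that a gene was silent. The most frequent value above 0 in a library also differed. As a normalised count it ran from 0.0595 in WT number 1 class 2 to 20.8 in TGA number 2 class 4. Low values and values of 0 are therefore not directly comparable between libraries. No pair of libraries was a copy: across genes, the closest pair correlated at 0.792. All 10 hepatocyte markers were tested, of which Apoa1, Trf and Cyp2e1 were above 0 in all 24 libraries. Others were often at 0: Alb in 0 TGA and 5 WT libraries, Cps1 in 0 TGA and 5 WT, Ass1 in 1 TGA and 5 WT, Apob in 2 TGA and 6 WT, Hnf4a in 4 TGA and 8 WT, Ttr in 5 TGA and 8 WT, and Serpina1a in 8 TGA and 10 WT. The hepatocyte markers' summed level ran from 11.68 to 15.21 in TGA, with a median of 14.51, and from 10.09 to 14.52 in WT, with a median of 11.16. Of the other cell types' markers, 0 of 6 for cholangiocytes (Spp1 at 0 in all 24 libraries), 0 of 6 for Kupffer cells and macrophages (Vsig4 at 0), 0 of 6 for stellate cells and fibroblasts, and 0 of 6 for lymphocytes (Cd79a and Nkg7 at 0) reached the tested set, against 2 of 6 for endothelium (Clec4g at 0) and 2 of 6 for neurons (Snap25 at 0). Hba-a1 and Hbb-bs, the erythroid globin genes, were at 0 in all 24 libraries. The summed endothelial level ran from 0 to 6.79 in TGA, with a median of 0.88, and from 0 to 7.36 in WT, with a median of 2.78. For stellate cells it reached 3.73 in TGA and 5.65 in WT, with medians of 0.00 in TGA and 0.98 in WT, and for neurons 7.33 in TGA and 6.34 in WT, with medians of 0.46 in TGA and 1.62 in WT. The medians for cholangiocytes were 0.50 in TGA and 0.41 in WT, and those for Kupffer cells and lymphocytes were 0.00 in both genotypes. The median hepatocyte level was thus higher in TGA and the median endothelial, stellate and neuronal levels lower, and the part of these in the lower values of the 8 transcripts was not tested. In bulk RNA, fewer cells of a type and less RNA per cell cannot be told apart.

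The 8 genes do not form one pathway. Rorb encodes a nuclear receptor of the ROR family, which binds DNA at the half-site AGGTCA and is best known from the retina and brain, while its relative Rora is well known from liver, where it acts on clock and lipid genes. Pigr encodes the polymeric immunoglobulin receptor, which carries dimeric IgA across epithelia and, in rodents, across hepatocytes into bile. Cyb5r3 encodes the reductase that passes electrons from NADH to cytochrome b5 for fatty acid desaturation and sterol synthesis. Spop encodes the adaptor that brings substrates to the ubiquitin ligase built on cullin 3. Arsb encodes the lysosomal enzyme arylsulfatase B, which removes sulfate from dermatan and chondroitin sulfate. Fgf9 encodes a secreted growth factor that signals through FGF receptors and is known from lung and gonad development. Gm31305 is annotated as a long noncoding RNA and 4932431P20Rik as a transcribed pseudogene, and neither has a role stated here.

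The genes lie apart in the genome, on chromosomes 19 (Rorb), 3 (Gm31305), 1 (Pigr), 15 (Cyb5r3), 11 (Spop), 13 (Arsb), 7 (4932431P20Rik) and 14 (Fgf9). Gm31305 runs antisense inside the span of Pde4dip without sharing exon bases with it. Of the 8, Cyb5r3 and Arsb share exon bases with another gene: Cyb5r3 shares 243 bases with the opposite-strand Gm49463, and Arsb shares 1948 bases with Gm26527 and 463 with Gm47210, both on the other strand. Whether the counting used strand is not given in the sources used here, so reads of these overlapping stretches cannot be told apart. Gm49463, Gm26527 and Gm47210 are themselves absent from the deposited table. In the longest annotated transcript of Arsb, 60.1% of all 25-base words also occur, on either strand, in another gene, against 0% in Gm31305 and at most 5.18% (Fgf9) in the other 7. Of these 2412 words of Arsb, 1909 occur in Gm26527, so most of them restate the exon overlap. Rorb and Spop share 9 words of 25 bases. The first, a simple repeat, is printed below as it stands in the Rorb transcript of the GENCODE annotation. In Spop it lies in the opposite orientation. At 25 bases it is shorter than the 75 bp reads, and whether Rorb and Spop shared any reads was not tested.
Rorb and Spop: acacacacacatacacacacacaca

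RefSeq's promoter table (build GRCm38.p6) held 7 promoters of 6 of the 8 genes. The 250 bases before the start are shown for Gm31305, Pigr and Spop, because these 3 moved together most closely across libraries, as described further on. Capitals mark matches, on either strand, to the nuclear receptor half-site AGGTCA, the GC box GGGCGG, the CCAAT box and the TATA box TATAAA. The printed strand of all 3 is the plus strand, at chr3:97724938-97725187 for Gm31305, chr1:130826434-130826683 for Pigr and chr11:95413833-95414082 for Spop.
Gm31305: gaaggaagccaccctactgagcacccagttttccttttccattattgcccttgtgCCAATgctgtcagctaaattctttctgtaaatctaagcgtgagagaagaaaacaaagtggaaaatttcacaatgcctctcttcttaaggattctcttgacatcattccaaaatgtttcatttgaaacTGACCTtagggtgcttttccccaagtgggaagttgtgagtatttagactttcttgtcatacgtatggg
Pigr: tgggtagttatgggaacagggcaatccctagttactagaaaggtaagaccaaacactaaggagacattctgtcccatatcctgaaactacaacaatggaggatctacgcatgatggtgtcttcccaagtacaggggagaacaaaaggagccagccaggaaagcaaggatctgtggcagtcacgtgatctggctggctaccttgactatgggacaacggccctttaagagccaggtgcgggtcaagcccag
Spop: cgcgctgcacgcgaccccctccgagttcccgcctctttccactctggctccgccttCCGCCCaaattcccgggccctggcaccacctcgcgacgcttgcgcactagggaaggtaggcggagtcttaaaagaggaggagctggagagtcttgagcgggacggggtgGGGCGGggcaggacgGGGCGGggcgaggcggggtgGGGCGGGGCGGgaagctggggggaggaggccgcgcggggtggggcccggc
The 3 promoters differ in base composition and in motifs. The Spop window is 73.6% G and C with 27 CG pairs and 5 GC boxes, of which the last 2 overlap by 1 base. The Gm31305 window is 40.4% G and C with 2 CG pairs, and holds 1 half-site and 1 CCAAT box. The Pigr window is 50.4% G and C with 4 CG pairs and none of the 4 motifs. Over all 32851 windows of the same length, the median was 52.4% G and C with 6 CG pairs, and 14% held AGGTCA, 32.7% GGGCGG, 33.8% CCAAT and 12.4% TATAAA. None of the 4 motifs stood in all 3 windows, which says only that these letters are not in them.

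Of the 8 transcripts, 5 were among the top genes of most WT libraries and 3 were not. Without correction for gene length, Rorb ranked 4 to 466 in the 12 TGA libraries and 1 to 11 in the 12 WT libraries. Gm31305 ranked 7 to 64 in TGA and 5 to 14 in WT, Pigr 5 to 18 and 3 to 7, Cyb5r3 2 to 7 and 1 to 3, and Spop 9 to 87 and 8 to 16. Arsb, in contrast, ranked between 14 and 662 in WT, 4932431P20Rik between 27 and 1331, and Fgf9 between 48 and 7662, so these 3 are described by name and not as abundant. All 8 passed the filter on low values, and 4932431P20Rik and Fgf9, at 0 in most TGA libraries, passed it through their WT libraries.

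**Figure D1:**
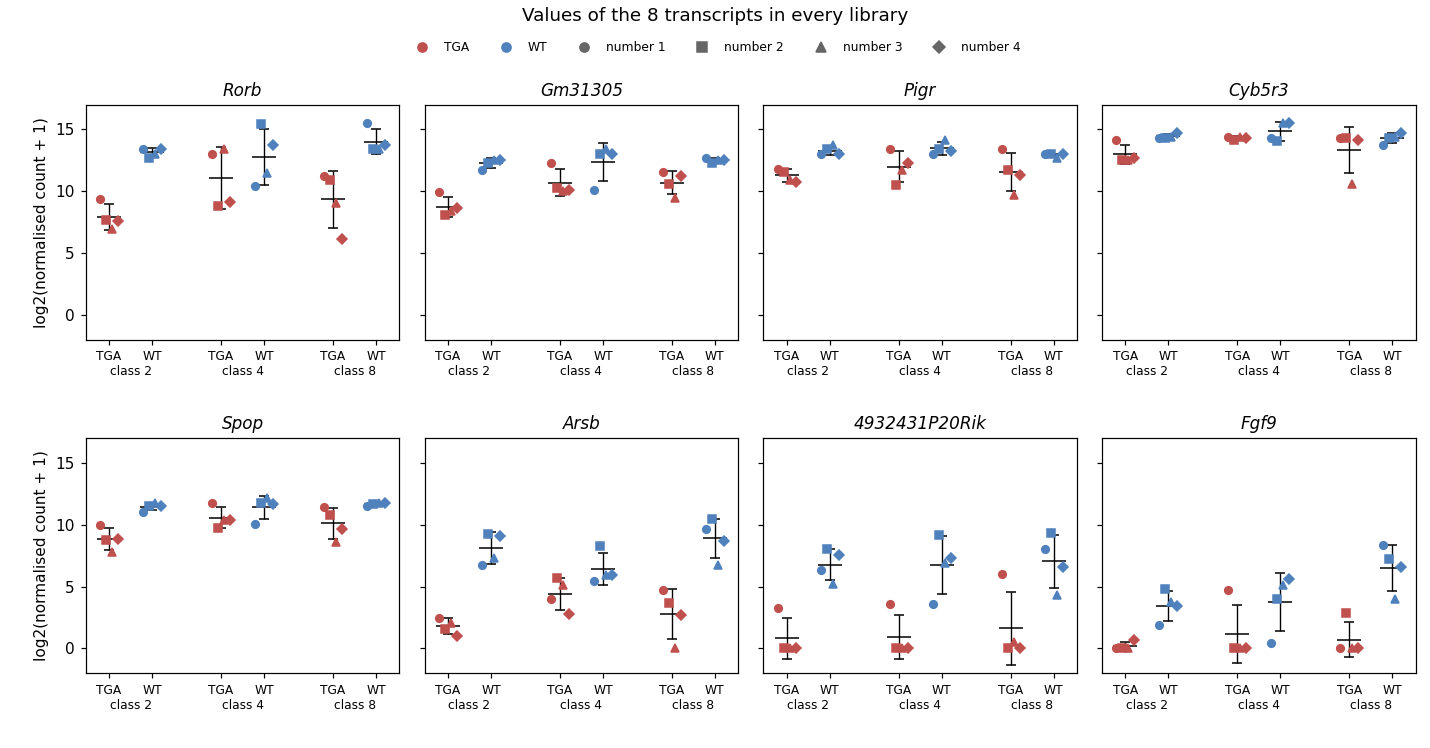
Values of the 8 transcripts in each of the 24 libraries, as log2(normalised count + 1), by class and genotype; symbols mark the number in the title, and black bars give the mean and SD of 4 libraries. In class 2 all TGA libraries lie below all WT libraries in each of the 8 panels, whereas in class 4 the groups meet or overlap.

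Rorb was the transcript that varied most among the 5 abundant ones. Rorb in class 2 had values of 9.38, 7.70, 6.96 and 7.62 in TGA numbers 1 to 4, against 13.42, 12.73, 12.98 and 13.42 in WT numbers 1 to 4. In class 4, Rorb had 12.98, 8.79, 13.42 and 9.11 in TGA, against 10.40, 15.45, 11.51 and 13.71 in WT. Class 8 gave Rorb 11.21, 10.94, 9.03 and 6.17 in TGA, against 15.54, 13.42, 13.42 and 13.71 in WT. The genotypes were apart in class 2 and class 8 and overlapped in class 4, where TGA numbers 1 and 3 stood as high as WT libraries and WT number 1 was low. Averaged over the 3 classes of each number, TGA had a mean of 9.44 ± 1.48 and WT one of 13.31 ± 0.55 (SD, n = 4 numbers each), a difference of -3.87.

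The noncoding Gm31305 had a tighter range. Gm31305 stood at 9.91, 8.04, 8.42 and 8.67 in TGA class 2, against 11.73, 12.32, 12.56 and 12.56 in WT class 2. In class 4, Gm31305 had 12.32, 10.28, 10.04 and 10.10 in TGA, against 10.10, 12.98, 13.42 and 12.98 in WT. Class 8 gave Gm31305 11.58, 10.57, 9.44 and 11.21 in TGA, against 12.73, 12.32, 12.56 and 12.56 in WT. The class 4 overlap came from WT number 1, which lay below the 2 highest TGA libraries, while all TGA libraries lay below the other 3 WT ones. Over the numbers, Gm31305 averaged 10.05 ± 0.86 in TGA and 12.40 ± 0.60 in WT (SD, n = 4 each), a difference of -2.35.

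Pigr, the IgA transporter, was high in all 24 libraries. Its class 2 values were 11.81, 11.58, 10.94 and 10.78 in TGA, against 12.98, 13.42, 13.71 and 12.98 in WT. In class 4, Pigr had 13.42, 10.48, 11.73 and 12.32 in TGA, against 12.98, 13.42, 14.16 and 13.27 in WT. By rank Pigr stood there at 5, 7, 10 and 9 in TGA, against 7, 3, 3 and 4 in WT. The lowest value, 10.48, was thus not the lowest rank. Class 8 gave Pigr 13.42, 11.73, 9.66 and 11.35 in TGA, against 12.98, 12.98, 12.73 and 12.98 in WT. Only in class 2 were the genotypes apart, and in class 4 and class 8 TGA number 1 stood above at least 1 WT library. Pigr averaged 11.60 ± 0.90 in TGA and 13.22 ± 0.25 in WT (SD, n = 4 numbers each), a difference of -1.61.

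Cyb5r3, the cytochrome b5 reductase, differed least. Its class 2 values were 14.16, 12.56, 12.54 and 12.73 in TGA, against 14.29, 14.32, 14.40 and 14.75 in WT. In class 4, Cyb5r3 had 14.40, 14.16, 14.40 and 14.32 in TGA, against 14.32, 14.06, 15.54 and 15.54 in WT. Class 8 gave Cyb5r3 14.32, 14.32, 10.60 and 14.16 in TGA, against 13.71, 14.32, 14.40 and 14.75 in WT. All but 1 of the TGA libraries of class 4 and class 8 lay within the WT range, and the low class 8 value belonged to TGA number 3, the library with 9096 genes above 0. By rank Cyb5r3 stood at 5 there, beside 3, 3 and 4 in TGA numbers 1, 2 and 4 of class 8. Cyb5r3 averaged 13.55 ± 0.75 in TGA and 14.53 ± 0.43 in WT (SD, n = 4 numbers each), a difference of -0.98, and the number means of the genotypes overlapped.

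Spop, the cullin 3 adaptor, followed Gm31305. Its class 2 values were 9.96, 8.78, 7.80 and 8.83 in TGA, against 11.07, 11.55, 11.77 and 11.55 in WT. In class 4, Spop had 11.77, 9.78, 10.39 and 10.36 in TGA, against 10.03, 11.77, 12.20 and 11.66 in WT. Class 8 gave Spop 11.43, 10.82, 8.59 and 9.66 in TGA, against 11.55, 11.66, 11.77 and 11.77 in WT. As with Gm31305, the highest TGA library and the lowest WT library of class 4 were both number 1. Spop averaged 9.85 ± 0.89 in TGA and 11.53 ± 0.45 in WT (SD, n = 4 numbers each), a difference of -1.68, with overlapping number means.

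Arsb, the lysosomal sulfatase, was far lower in TGA class 2 and class 8. Its class 2 values were 2.50, 1.55, 2.10 and 1.01 in TGA, against 6.75, 9.26, 7.28 and 9.13 in WT. In class 4, Arsb had 4.01, 5.73, 5.13 and 2.82 in TGA, against 5.49, 8.32, 5.96 and 5.91 in WT. Class 8 gave Arsb 4.72, 3.68, 0 and 2.69 in TGA, against 9.65, 10.48, 6.79 and 8.69 in WT. The groups were apart in class 2 and class 8, and in class 4 they overlapped through TGA number 2 and WT number 1. Arsb averaged 2.99 ± 0.82 in TGA and 7.81 ± 1.15 in WT (SD, n = 4 numbers each), a difference of -4.82. With its overlapping exons, which hold most of its shared words, the identity of these reads is uncertain.

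The pseudogene transcript 4932431P20Rik was listed at 0 in 8 of 12 TGA libraries and in 0 of 12 WT libraries. Its TGA values were 3.28, 0, 0 and 0 in class 2, 3.57, 0, 0 and 0 in class 4, and 6.03, 0, 0.53 and 0 in class 8. In WT, 4932431P20Rik had 6.38, 8.03, 5.24 and 7.53 in class 2, 3.57, 9.19, 6.92 and 7.33 in class 4, and 8.08, 9.31, 4.34 and 6.57 in class 8. TGA number 1 carried nearly all of the TGA signal. In class 4 its value and that of WT number 1 were equal to 2 decimals, the TGA one being lower. As normalised counts they were 10.8 in TGA and 10.9 in WT. The most frequent value above 0 was 10.8 in that TGA library and 0.0595 in that WT library. The TGA value thus stood at the most frequent level of its library and the WT value far above that of its own. The averages were 1.12 ± 2.12 in TGA and 6.87 ± 1.48 in WT (SD, n = 4 numbers each), a difference of -5.76.

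Fgf9, the secreted growth factor, was listed at 0 in 9 of 12 TGA libraries and in 0 of 12 WT libraries. Its TGA values were 0, 0, 0 and 0.71 in class 2, 4.69, 0, 0 and 0 in class 4, and 0, 2.85, 0 and 0 in class 8. In WT, Fgf9 had 1.89, 4.81, 3.74 and 3.42 in class 2, 0.42, 4.01, 5.13 and 5.60 in class 4, and 8.40, 7.21, 3.99 and 6.57 in class 8. The 3 TGA libraries with a value belonged to 3 different numbers, and the lowest WT value belonged to the library with 14469 genes above 0. Fgf9 averaged 0.69 ± 0.71 in TGA and 4.60 ± 0.83 in WT (SD, n = 4 numbers each), a difference of -3.91. Means and differences that include values of 0 depend on the 1 added before the log.

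Counted together, the number means of TGA lay below those of WT without overlap for 6 of the 8 transcripts, all but Cyb5r3 and Spop, where 3.92% of all tested genes did so. In class 2 this held for 8 of 8 against 2.15% of all tested genes, in class 4 for 1 of 8 (4932431P20Rik) against 0.882%, and in class 8 for 5 of 8 against 1.6%. Nothing is read from these counts about genotype, because this contrast chose the transcripts. Number 1 was the highest of the 4 TGA numbers for all 8 transcripts. Among the WT numbers, number 1 was the lowest for Gm31305, Pigr, Cyb5r3, Spop and Fgf9. The order of the TGA differences ran from 4932431P20Rik (-5.76) through Arsb, Fgf9, Rorb, Gm31305, Spop and Pigr to Cyb5r3 (-0.98), and whether neighbours in that order differ was not tested.

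The class comparisons were not used to choose the transcripts, so they could be tested. Averaged over both genotypes, all 8 had a higher mean in class 4 than in class 2, as had 42.2% of all tested genes, and none passed the test (limma-trend, Benjamini-Hochberg adjustment over 4875 genes, threshold 0.05). Cyb5r3 had the smallest p, with means of 14.59 in class 4 and 13.72 in class 2, a difference of 0.87 (SE 0.33, adjusted p = 0.25). Rorb had means of 11.92 in class 4 and 10.53 in class 2, a difference of 1.39 (SE 0.65, adjusted p = 0.338). For Gm31305 they were 11.53 in class 4 and 10.53 in class 2, and the interval of the difference ran from 0.09 to 1.91 (SE 0.45, adjusted p = 0.327). These 3 were the ones with an unadjusted p under 0.05, as were 13.6% of all tested genes, of which 0.308% passed after adjustment. The median difference of the 8 was 0.74, beside -0.23 over all tested genes.

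Class 8 against class 2 likewise gave 0 of 8 calls, beside 0.0205% of all tested genes, and 7 of the 8 differences were positive, as were 43.9% over all tested genes, with a median of 0.82 beside -0.16 over all genes. Gm31305 had means of 11.62 in class 8 and 10.53 in class 2, a difference of 1.10 (SE 0.45, adjusted p = 0.548), and was the only one with an unadjusted p under 0.05, beside 7.36% of all genes. Fgf9 had the largest difference, 1.81, with a 95% confidence interval from -0.26 to 3.88 (adjusted p = 0.736). That average joins a difference of 3.08 within WT and 0.53 within TGA. In TGA, 3 of 4 libraries were at 0 for Fgf9 in class 2 and again in class 8. Pigr was the exception in sign, with a difference of -0.05 and an interval from -0.80 to 0.71. Between class 8 and class 4, 0 of 8 passed, beside 0% of all genes, and the median difference was 0.00 beside 0.06. Cyb5r3 had means of 13.82 in class 8 and 14.59 in class 4, a difference of -0.77 (SE 0.33, adjusted p = 0.718), and was the only one with an unadjusted p under 0.05, beside 6.58% of all genes. With 1 genotype and number left out at a time, that difference lay between -0.96 and -0.30.

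Whether the class difference depended on genotype was tested as an interaction, TGA minus WT, which the choice of transcripts did not use. For class 4 against class 2, 0 of 8 passed, beside 0% of all genes. All 8 interactions were positive, as were 41.9% over all genes, with a median of 1.35 beside -0.35. For 4932431P20Rik and Fgf9, 3 of 4 TGA libraries were at 0 in class 2 and again in class 4, so their TGA values there rest on 1 library each. Rorb differed by 3.16 (SE 0.92) within TGA and by -0.37 (SE 0.92) within WT, an interaction of 3.53 (SE 1.29, 95% confidence interval 0.93 to 6.14, adjusted p = 0.767). Arsb differed by 2.63 within TGA and by -1.68 within WT, an interaction of 4.31 (SE 1.94, adjusted p = 0.767). Gm31305 differed by 1.93 within TGA and by 0.08 within WT, an interaction of 1.85 (SE 0.91, adjusted p = 0.781). Only these 3 had an unadjusted p under 0.05, beside 6.34% of all genes. The intervals of the other 5 included 0, among them 4932431P20Rik with -4.39 to 4.61, an interval wide enough for large effects in either direction.

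In the interaction for class 8 against class 2, 0 of 8 passed, beside 0% of all genes, and 0 had an unadjusted p under 0.05, beside 4.06%. Of the 8, 7 were positive, beside 47.4% of all genes, and Fgf9 was at -2.54 (SE 2.06), since it differed by 0.53 within TGA and by 3.08 within WT. With 3 of 4 TGA libraries at 0 for Fgf9 in both classes, its TGA values there rest on 1 library each. For class 8 against class 4, 0 of 8 passed, beside 0% of all genes, and 2 of the 8 were positive, beside 55.1%, with a median of -0.56 beside 0.22 over all genes. Rorb was at -3.00 (SE 1.29, adjusted p = 0.925) and Arsb at -4.13 (SE 1.94, adjusted p = 0.925), the 2 with an unadjusted p under 0.05, beside 4.68% of all genes. The 3 class comparisons share libraries, so the values for Rorb and Arsb in class 4 enter both interactions. Under the alternatives tried, 0 of the 8 passed in any class comparison or interaction, limma without a mean-dependent prior included, and the lowest adjusted p was 0.0568.

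**Figure D2:**
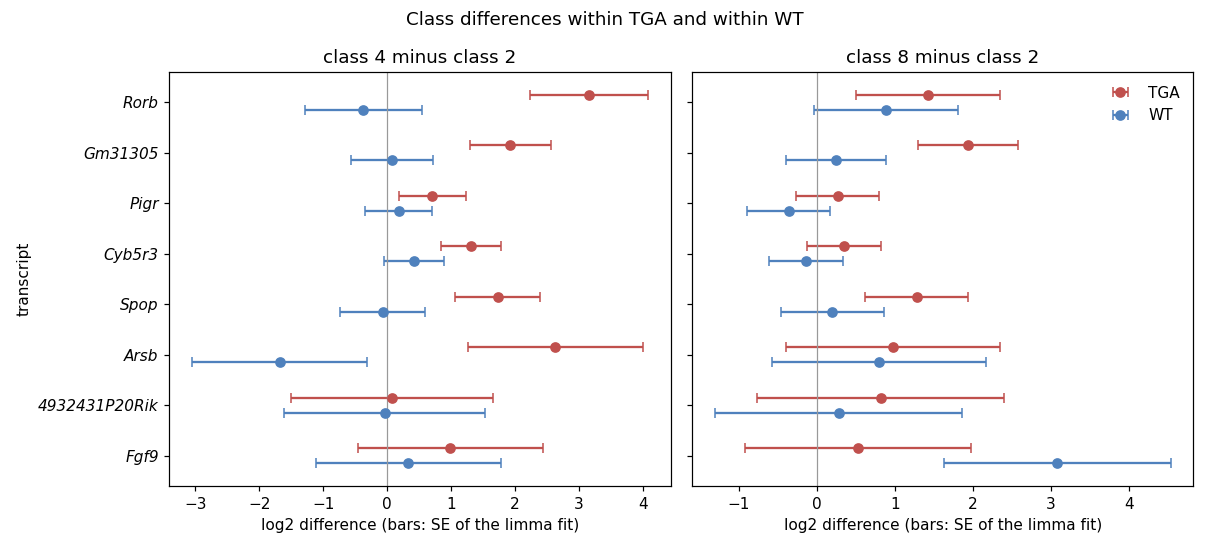
Class differences of the 8 transcripts within TGA (red, upper point of each pair) and within WT (blue), in log2 units with the SE of the limma fit; the left panel gives class 4 minus class 2 and the right panel class 8 minus class 2. All 8 lie right of 0 within TGA in the left panel, from 0.07 (4932431P20Rik) to 3.16 (Rorb), and none of the interactions passed the test.

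How the 8 transcripts varied together was measured on the deviations of each library from its group mean, which removes the genotype difference that chose them. All 28 pairs correlated positively, with Pearson's r from 0.09 to 0.84 and a median of 0.52, whereas the median over all pairs of 1738 tested genes above 0 in at least 12 libraries was 0.03, and 1.6% of those pairs exceeded 0.6. With 100000 permutations of libraries within groups and adjustment over the 28 pairs, 7 pairs passed. The 1738 genes were not matched to the 8 for level, and their pairs were not put through the permutation test. Whether the 8 vary together more than other genes of like level was therefore not tested. Libraries of one genotype and number may share an animal, so the 24 points may not be independent. Gm31305 and Spop had r = 0.84 and Spearman's rho = 0.80 (permutation p = 0.00098 and 0.00196, adjusted p = 0.0137 and 0.0183), and r = 0.78 without the 2 libraries farthest from the median of Gm31305. Pigr and Spop had r = 0.83 and rho = 0.77 (permutation p = 0.00016 and 0.00064, adjusted p = 0.00448 and 0.0179), and r = 0.74 without the 2 farthest. Both pairs held within each genotype, with r = 0.80 in TGA and 0.97 in WT for Gm31305 and Spop, and r = 0.88 in TGA and 0.73 in WT for Pigr and Spop.

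The other 5 pairs that passed were weaker. Cyb5r3 and Spop had r = 0.69 and rho = 0.61 (permutation p = 0.0039 and 0.00149, adjusted p = 0.0255 and 0.0183), with r = 0.52 without the 2 farthest. Gm31305 and 4932431P20Rik had r = 0.66 and rho = 0.61 (permutation p = 0.00361 and 0.00511, adjusted p = 0.0255 and 0.0358), with r = 0.52 without them. For Gm31305 and Pigr, r was 0.64 and rho 0.58 (permutation p = 0.00547 and 0.0164, adjusted p = 0.0255 and 0.0568), with r = 0.62 without them. Spop is in 4 of the 7 pairs, and Gm31305 and 4932431P20Rik are in 3 each. For Spop and 4932431P20Rik, r was 0.64 and rho 0.54 (permutation p = 0.00546 and 0.0136, adjusted p = 0.0255 and 0.0568), with r = 0.59 without them. Arsb and 4932431P20Rik had r = 0.61 and rho = 0.55 (permutation p = 0.0124 and 0.0182, adjusted p = 0.0496 and 0.0568), with r = 0.56 without them. By rank correlation 3 of these 7 pairs did not pass, those with an adjusted p of 0.0568. 4932431P20Rik was at 0 in 8 of 12 TGA libraries, and TGA number 1 held nearly all of its TGA signal. Without TGA number 1, its r was 0.46 with Gm31305, 0.29 with Spop and 0.63 with Arsb. The number of pairs past the threshold rested on single numbers: it was 0 without TGA number 1 and without TGA number 3, 2 without TGA number 4, 4 without WT number 1, and 0 without the 4 libraries above 7000 genes, where the median r was 0.39.

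**Figure D3:**
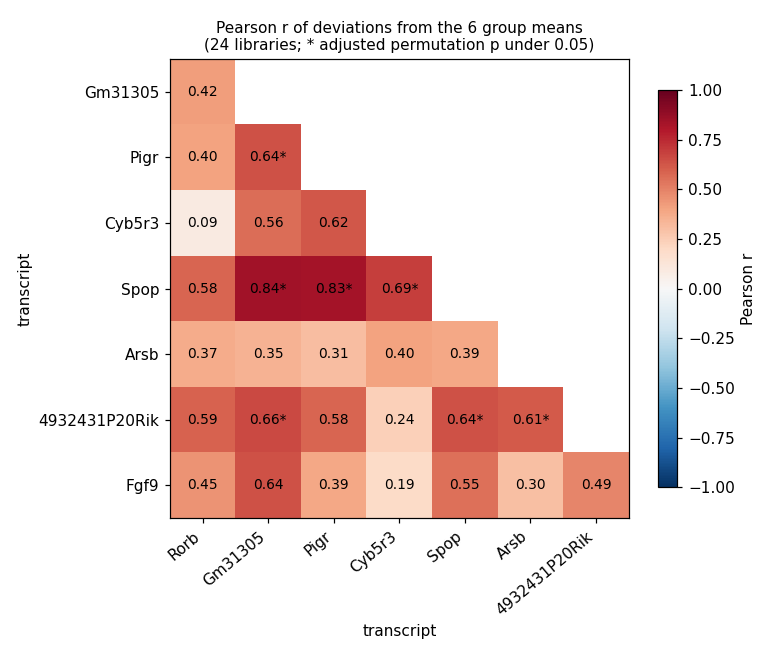
Pearson's r between the 8 transcripts over 24 libraries, after the mean of each of the 6 groups was removed; asterisks mark the 7 pairs with an adjusted permutation p under 0.05. The darkest cells, 0.84 and 0.83, join Spop with Gm31305 and with Pigr.

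The number of genes above 0 in a library moved with some of these values. The relation was not computed for the other tested genes, so whether it is particular to these transcripts was not tested. Across the same deviations, Gm31305 had r = -0.68 and rho = -0.67 with it (permutation p = 0.00264 and 0.00334, adjusted p = 0.0108 for r over 8 transcripts), and r = -0.54 without WT number 1 class 2 and WT number 1 class 4, the libraries farthest out. Spop had r = -0.60 and rho = -0.59 (permutation p = 0.00271 and 0.00698, adjusted p = 0.0108), and r = -0.53 without those 2. Pigr had r = -0.43 and rho = -0.62 (permutation p = 0.012 and 0.00319, adjusted p = 0.0259), and r = -0.50 without them. All 3 relations were also negative within each genotype, with r = -0.59, -0.63 and -0.63 in TGA and -0.81, -0.83 and -0.70 in WT for Gm31305, Spop and Pigr in that order. Fgf9 had r = -0.55 and rho = -0.43 (permutation p = 0.0129 and 0.0483, adjusted p = 0.0259), but r = -0.29 without the 2 farthest and -0.10 within TGA, so it rests on those libraries. Cyb5r3 (r = -0.46, adjusted permutation p = 0.0521), Arsb (-0.42, 0.102), 4932431P20Rik (-0.35, 0.154) and Rorb (-0.18, 0.473) did not pass. Within TGA, however, r was -0.90 for Cyb5r3 and -0.80 for Arsb, against -0.35 and -0.30 for them within WT, and Cyb5r3 had r = -0.58 without the 2 farthest libraries. Those 2 are WT libraries. TGA number 3 class 8, with 9096 genes above 0, stayed in and held the lowest TGA values, 10.60 for Cyb5r3 and 0 for Arsb. The relation within TGA was not computed without it. With the number of genes regressed out, 6 pairs of transcripts passed, with a median r of 0.40 over the 28, and Pigr and Spop had r = 0.80 and Gm31305 and Spop r = 0.73.

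**Figure D4:**
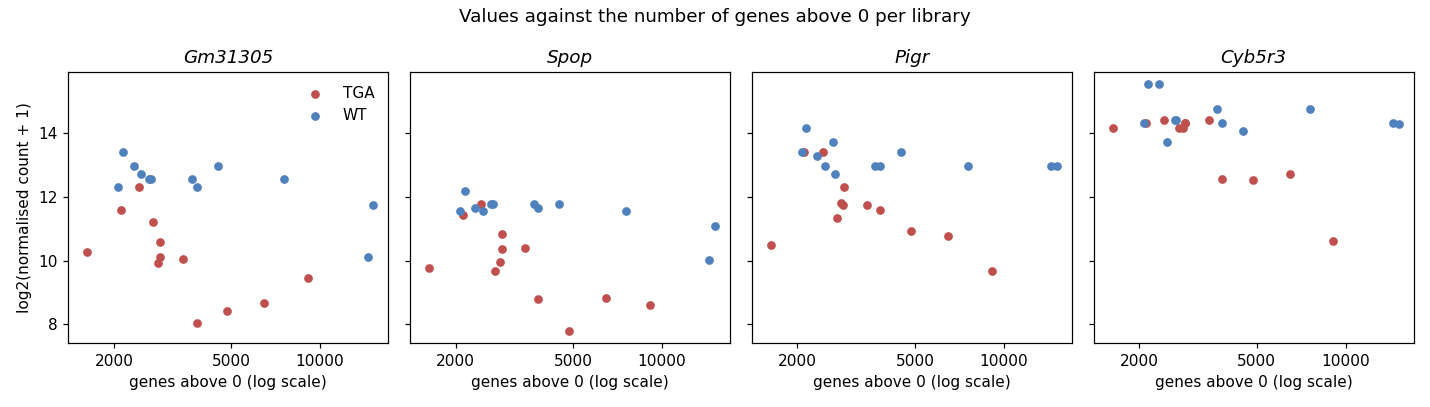
Values of Gm31305, Spop, Pigr and Cyb5r3, as log2(normalised count + 1), against the number of genes above 0 in each library on a log axis, for TGA (red) and WT (blue). Cyb5r3 has its lowest value, 10.60, in the TGA library with 9096 genes, where it ranked 5. The WT libraries with the most genes, 15147 and 14469, lie at the lower end of the WT range for Gm31305 and Spop.

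The genes most like each transcript were taken by the same measure, Pearson's r of deviations over 24 libraries among the 1738 genes. Spop's 3 nearest were Gm31305, Pigr and Gpc6 (r = 0.76), a glypican of the cell surface, which was also second to Gm31305 (r = 0.83). Pigr's nearest besides Spop were Ppargc1b (r = 0.79), a coactivator of mitochondrial and lipid genes, and 3632451O06Rik (r = 0.77). Gm31305 was followed by Nudt1 (r = 0.76), which clears oxidised nucleotides. Cyb5r3 was nearest to Taf3 (r = 0.84), a subunit of the general transcription factor TFIID, LOC108168367 (r = 0.83) and Gm35338 (r = 0.76). Rorb and 4932431P20Rik shared 2 of their nearest 3, Cfap46 (r = 0.81 with Rorb and 0.78 with 4932431P20Rik), a protein of cilia, and Gm40855 (r = 0.72 and 0.76). Rorb's other neighbour was Zfp113 (r = 0.71). Arsb's were Ttll10 (r = 0.90), of the tubulin tyrosine ligase-like family and also near 4932431P20Rik (r = 0.77), LOC105246707 (r = 0.79) and Rnu3a (r = 0.71), and those of Fgf9 were Gm36488 (r = 0.91), Gm38785 (r = 0.84) and Klhl31 (r = 0.79). Of 12 TGA libraries, Fgf9 was at 0 in 9 and these neighbours in 10, 8 and 10, so shared values of 0 enter their r. Spearman's rho of the named neighbours ran from 0.55 (Cyb5r3 with Taf3) to 0.92 (Arsb with Ttll10). All are the highest r among the 1738 genes, and none was tested.

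The partners of the 8 in their pathways were then examined, in lists named by function. Of the other genes listed, 10 of 20 for ROR receptors and the clock, 5 of 18 for immunoglobulin transport, 7 of 16 for the cytochrome b5 system, 8 of 18 for the cullin 3 ligase, 0 of 17 for lysosomal glycosaminoglycan breakdown and 9 of 23 for FGF signalling were tested. The first 4 lists had 19, 14, 14 and 17 of their symbols in the table, and the last 2 had all of them. None of these 39 genes passed in any class comparison or interaction, nor between TGA and WT, where 0.492% of all tested genes did (limma-trend, as above), nor between TGA and WT within a class, where 0.103% did in class 2, 0.0205% in class 4 and 0.0205% in class 8. At an unadjusted p under 0.05 between TGA and WT, 3 clock genes, 2 cytochrome b5 genes and 1 FGF gene were found, and 0 in the immunoglobulin and cullin 3 lists, beside 8.88% of all tested genes. The median TGA minus WT difference was 0.68 for clock genes, 0.32 for immunoglobulin transport, 0.95 for the cytochrome b5 system, 0.30 for the cullin 3 ligase and -0.05 for FGF signalling, beside 0.11 over all tested genes.

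By name, the partners had other values than the 8. Rora was above 0 in 5 TGA and 7 WT libraries, with highest values of 3.12 in TGA and 3.29 in WT, whereas Rorb was above 0 in all 24. Bhlhe40, a clock repressor, differed by 2.75 between TGA and WT (SE 1.05, adjusted p = 0.386), Tef, an output factor of the clock, by 2.41 (SE 0.99, adjusted p = 0.435), and Clock itself by -1.55 (SE 0.71, adjusted p = 0.482). For Pigr, Jchain, the chain that joins its IgA cargo, was above 0 in 1 TGA and 1 WT library, and Nfkb1, an inflammatory factor known to act on Pigr, differed by 1.18 (SE 0.71, adjusted p = 0.596). In the cytochrome b5 system, Marc1, a mitochondrial enzyme fed by cytochrome b5, had 5.71 ± 0.76 in TGA and 2.90 ± 2.71 in WT, a difference of 2.81 (SE 1.10, adjusted p = 0.406). Scd1, the desaturase supplied by cytochrome b5, was above 0 in all 24 libraries, with 5.83 ± 1.08 in TGA and 7.33 ± 0.45 in WT (difference -1.49, SE 0.95, adjusted p = 0.615). In the cullin 3 list Keap1, another substrate adaptor of that ligase, had 2.23 ± 0.53 in TGA and 1.02 ± 0.86 in WT, a difference of 1.21 (SE 0.88, adjusted p = 0.649), which was 4.77 within class 8 (SE 1.27, adjusted p = 0.15). Cul3, the ligase core that Spop joins, was above 0 in 8 TGA and 7 WT libraries, and Spopl, the close relative of Spop, in 4 TGA and 3 WT libraries. Among FGF genes, Sdc4, a heparan sulfate proteoglycan, had 8.05 ± 0.31 in TGA and 4.90 ± 2.48 in WT, a difference of 3.15 (SE 0.99, adjusted p = 0.161). Fgf16 and Fgf20, the nearest relatives of Fgf9, were each above 0 in 1 TGA and 1 WT library, at 0.50 or lower.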

How the data were processed

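RNA-seq of 24 mouse liver libraries was used. Per the labels' protocols, RNA was isolated with a kit for fixed, embedded tissue and sequenced as 75 bp single-end reads; the submitters' processing notes name TopHat, edgeR and build mm9, with versions, annotation, strand setting and normalization not given in the sources used here. The deposited values are on a natural log scale (unit inferred from the values): 942 and 655 genes of the 2 libraries with the most genes sat, within 1e-09, at the level a quantile-normalised count of 1 would give. They were divided by the natural log of 2, giving log2(normalised count + 1). The files hold no counts, so the sequencing depth is unknown and intervals for counting error cannot be set. Promoter coordinates are RefSeq's, of build GRCm38.p6, and were not joined to mm9.

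A gene was tested if its deposited value reached 1 in 4 or more libraries (4875 genes), with limma-trend (limma 3.58.1, R 4.3.3): 24 libraries with 1 mean per group for classes and interactions (prior 27.8, residual 18 degrees of freedom), and 8 means of genotype and number for TGA against WT (prior 152, residual 6), so the pooled spread dominates that fit. P-values were adjusted by Benjamini-Hochberg over the 4875 genes (threshold 0.05). Relations used two-sided permutation within groups. The 8 transcripts and all lists were chosen with earlier results of these data known. Named genes are the 8, the 3 nearest genes of each, and up to 3 genes per pathway list and comparison with the smallest p; Rora, Jchain, Cul3, Spopl, Fgf16, Fgf20, Fcamr and the markers were named after their values were seen. Alternatives were other filters, a pseudocount of 10, a replicate block, the number of genes above 0 as a covariate, no mean-dependent prior, ranks, and left-out libraries. A further sequence comparison is not reported here.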

Additional observations from a re-analysis of the deposited data

Results flagged for a closer look

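Within groups of 4 libraries, 13 of the 48 combinations of transcript and group had 1 library far from the other 3, by Dixon's criterion at 95%. Its nominal rate of about 1 in 20 is for normally distributed values. The criterion was not run on other genes, so whether 13 of 48 is unusual in these data was not tested. Groups in which 3 of 4 libraries share a value, as those at 0, meet it whenever the fourth differs.

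Of the 13, 6 belonged to TGA number 1. 4932431P20Rik was 3.28 in its class 2 library against 0 in the other 3, 3.57 in class 4 against 0, and 6.03 in class 8 against at most 0.53. Fgf9 was 4.69 in TGA number 1 class 4 against 0 in the other 3. Gm31305 was 12.32 in the same library against at most 10.28, and Cyb5r3 was 14.16 in TGA number 1 class 2 against at most 12.73.

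Of the other TGA libraries, Fgf9 was 0.71 in TGA number 4 class 2 and 2.85 in TGA number 2 class 8, against 0 in the other 3 of each group. Cyb5r3 was 10.60 in TGA number 3 class 8 against at least 14.16, though it ranked 5 there and 3, 3 and 4 in TGA numbers 1, 2 and 4. In WT, Rorb was 15.54 in number 1 class 8 against at most 13.71, and Arsb was 8.32 in number 2 class 4 against at most 5.96. Gm31305 was 10.10 in WT number 1 class 4 against at least 12.98. Pigr was 12.73 in WT number 3 class 8, against 12.98 in the other 3.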

How the results depend on the processing

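Depth is unknown and 54.1% of tested values are 0, so low transcripts are imprecise. The TGA minus WT sign of the 8 was kept in all 120 recomputed values and by rank. Since the 8 were chosen for that sign in these same values, nothing is read from its being kept. A pseudocount of 10 gave -3.60 for Arsb, -3.33 for 4932431P20Rik and -1.80 for Fgf9, and Fgf9 was -5.34 without the 4 libraries above 7000 genes. Counts of genes past the threshold moved, and the cause was not tested. Class 4 against class 2 (15 genes) gave 9 with the filter in 12 libraries, 5 with genes detected as a covariate, 0 with no filter, 5 with a pseudocount of 10 and 38 without the libraries above 7000 genes. Class 8 against class 2 (1) gave 0 with the stricter filter, 0 with the covariate, 0 with no filter and 4 without a mean-dependent prior; class 8 against class 4 (0) gave 5 without the libraries above 7000 genes. TGA against WT (24) gave 69 with the covariate, 9 with no filter, 5 without a mean-dependent prior and 97 without the libraries above 7000 genes. In class 2 (5) these 4 settings gave 41, 0, 2 and 15, and the stricter filter 9; in class 4 (1) they gave 2, 0, 0 and 10, and the stricter filter and the pseudocount 0 each; in class 8 (1) they gave 0, 0, 2 and 31. Pairs of transcripts past the threshold (7) numbered 0 without the libraries above 7000 genes.

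The replicate numbers were not treated as pairing libraries, although libraries of one genotype and number may share an animal: over all tested genes, deviations of libraries with the same genotype and number correlated at -0.10 to 0.43, over 0.1 in 2 of 24 pairs, and TGA and WT of one number at -0.27 to 0.06. With genotype and number together as a replicate block, 23 genes passed for class 4 against class 2. With the number alone as the block, 17 passed for TGA against WT and 2 for TGA against WT in class 8.

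Leaving out 1 genotype and number gave 1 to 20 genes for class 4 against class 2, 0 to 1 for class 8 against class 2, 0 to 2 for class 8 against class 4, 0 to 1, 0 to 0 and 0 to 1 for the interactions in the same order, 10 to 100 for TGA against WT, 0 to 68, 0 to 8 and 0 to 4 for it in classes 2, 4 and 8, and 0 to 8 pairs.

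Signs turned 46 times, always where no test passed. For class 4 against class 2, Arsb was -0.11 (pseudocount) and 4932431P20Rik -0.27 (covariate). For class 8 against class 2, Pigr was 0.12 without the libraries above 7000 genes and Cyb5r3 -0.12 (covariate); for class 8 against class 4, Gm31305 was -0.07 without those libraries. In the first interaction (class 4 against class 2), 4932431P20Rik was -0.06 (covariate), -0.03 (pseudocount) and -1.11 without those libraries; in the second (class 8 against class 2), Arsb was -0.23 (pseudocount). In the third (class 8 against class 4), the covariate gave 0.57 for Gm31305 and 0.08 for Cyb5r3, and leaving out those libraries 1.02, 0.70 and 0.25 for Gm31305, Cyb5r3 and Spop. With 1 genotype and number left out, the ranges that crossed 0 were -0.27 to 0.48 (4932431P20Rik) for class 4 against class 2, -0.13 to 0.49 (Cyb5r3) and -0.27 to 0.21 (Pigr) for class 8 against class 2, and -0.16 to 1.02 (4932431P20Rik), -0.32 to 0.27 (Gm31305), -0.89 to 0.31 (Rorb) and -0.34 to 0.14 (Spop) for class 8 against class 4. In the first interaction they were -0.81 to 0.69 (4932431P20Rik) and -0.56 to 1.29 (Fgf9), in the second -0.10 to 1.01 (4932431P20Rik), -0.25 to 1.21 (Arsb) and -0.07 to 1.49 (Rorb), and in the third -0.54 to 1.82 (4932431P20Rik), -0.78 to 0.54 (Cyb5r3), -0.52 to 0.66 (Gm31305) and -0.47 to 0.64 (Pigr).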

Other observations

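Kl and Fcamr, partners of these transcripts, were above 0 in few TGA and most WT libraries, a pattern picked out after the values were seen. Other listed genes went the opposite way, such as Tef, above 0 in 11 TGA and 5 WT libraries, and Marc1, in 12 TGA and 6 WT libraries. The share of all genes with either pattern was not counted. Kl, the gene of klotho, a coreceptor for FGF hormones, was above 0 in 2 of 12 TGA and 11 of 12 WT libraries, with highest values of 3.51 in TGA and 4.28 in WT, and its TGA minus WT difference was -0.87 (SE 0.68, limma adjusted p = 0.667). Fcamr, an Fc receptor for IgA and IgM related to Pigr, was above 0 in 1 of 12 TGA and 9 of 12 WT libraries, at 0.66 in TGA and at most 1.55 in WT, and did not reach the tested set.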
